A study of Mus musculus with 15 samples.

Results

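Mitochondrial and peroxisomal fatty acid oxidation was followed here through 36 genes, taken by symbol from the table of transcript abundances of the series. All 36 were among the 47643 gene symbols of the table, and all 36 passed the filter on low values (1 TPM or more in 3 or more libraries), as did 11923 symbols in all. TPM, the unit of the table, divides read numbers by transcript length and scales each library to the same sum of 1000000. Levels of different genes can therefore be set side by side, and sequencing depth is not kept.

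The tissue was tibialis anterior, a fast muscle of the lower hind limb, from female C57BL6/J mice labelled as 7 weeks of age. The labels do not say at which event the mice had this age. Per the design text of the series it was collected on day 49 after a melanoma xenograft that causes cachexia, the wasting of muscle and fat in cancer, or after a mock injection. Within each kind of mice some were given lisinopril, which inhibits angiotensin-converting enzyme (ACE), and some a mock treatment. This made 4 groups, control (mock injection, no drug, 4 libraries), lisinopril (mock injection and drug, 3), melanoma (tumour, no drug, 4) and melanoma plus lisinopril (tumour and drug, 4), so 7 libraries were tumour-free and 8 tumour-bearing. No genetic change of the mice is named in the labels. The sources used here do not give the melanoma line, the route of injection, the dose and schedule of lisinopril or any pooling of mice. The protocol label mentions a time after injection of another tumour line, so the day rests on the design text, and the libraries are called biological replicates in the labels.

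Long-chain fatty acids enter mitochondria as carnitine esters. An acyltransferase on the outer membrane loads them, a carrier in the inner membrane exchanges them, and a second acyltransferase returns them to coenzyme A. Beta-oxidation then repeats a cycle of dehydrogenation, hydration, a second dehydrogenation and thiolysis, with acyl-CoA dehydrogenases that differ in the chain length they take, while electrons pass through the electron transfer flavoprotein to the respiratory chain. Malonyl-CoA blocks entry, peroxisomes shorten very long and branched chains, and muscle relies on the whole route during fasting and endurance work.

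Promoter sequence was at hand for 29 of the 36 genes (RefSeq, build GRCm38.p6; 250 bases before to 50 after a gene's start). Hadha and Hadhb, the alpha and beta subunits of the mitochondrial trifunctional protein, are shown first because they lie head to head on chromosome 5 and both were lower in the values given further on. The Hadha gene is annotated at chr5:30118304-30155162 on the minus strand and Hadhb at chr5:30155248-30184593 on the plus strand, which puts these GENCODE starts 86 bases apart. The windows rest on the RefSeq starts, which lie 273 bases apart. The window of Hadhb, chr5:30155003-30155302 on the plus strand, shares 228 of its 300 bases with the window of Hadha, and these are in capitals.
Hadhb: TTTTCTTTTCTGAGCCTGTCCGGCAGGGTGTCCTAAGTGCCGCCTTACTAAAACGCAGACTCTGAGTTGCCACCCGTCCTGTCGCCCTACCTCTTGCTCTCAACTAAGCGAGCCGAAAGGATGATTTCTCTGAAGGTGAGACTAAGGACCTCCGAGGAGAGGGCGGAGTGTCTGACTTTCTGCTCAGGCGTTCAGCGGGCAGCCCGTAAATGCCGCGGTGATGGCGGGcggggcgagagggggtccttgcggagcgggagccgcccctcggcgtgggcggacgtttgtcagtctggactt

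The promoters of Acacb and Acadm are shown because they alone among the 29 held the letters AAGGTCA, a single binding element of nuclear receptors such as the estrogen-related receptors, searched on both strands. The match, written here as its reverse complement, is in capitals. The Acacb window is chr5:114165268-114165567 on the plus strand and the Acadm window chr3:153944594-153944893 on the minus strand. The Acacb window belongs to an internal start, 18983 bases inside the gene from its outermost annotated start, so it does not cover that first promoter. The same holds for the windows of Eci2 (32952 bases inside) and Acaa1a (1618), while 26 of 29 windows were built on a start within 1000 bases of the outermost one.
Acacb: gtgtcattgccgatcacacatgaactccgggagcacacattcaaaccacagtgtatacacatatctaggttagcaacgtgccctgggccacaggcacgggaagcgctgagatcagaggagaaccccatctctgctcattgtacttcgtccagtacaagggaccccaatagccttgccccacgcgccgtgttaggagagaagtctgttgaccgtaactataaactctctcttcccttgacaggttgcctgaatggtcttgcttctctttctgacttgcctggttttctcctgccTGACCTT
Acadm: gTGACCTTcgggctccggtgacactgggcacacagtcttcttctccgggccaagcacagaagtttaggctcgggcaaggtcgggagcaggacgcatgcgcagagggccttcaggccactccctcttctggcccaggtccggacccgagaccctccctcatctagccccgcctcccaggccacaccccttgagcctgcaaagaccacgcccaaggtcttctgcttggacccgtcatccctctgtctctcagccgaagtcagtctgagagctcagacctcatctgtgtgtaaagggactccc

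These letters were present in 2 of 29 promoters of the set and in 4.72% of 32851 promoter windows of the same length. The longer estrogen-related receptor element TNAAGGTCA, which contains them, was in 0 of 29 (1.28% of all windows). The direct repeat AGGTCANAGGTCA with 1 base between both copies, the consensus of PPAR with RXR, was also in 0 of 29 (0.04% of all windows). A match or its lack describes the letters of these windows only. Median GC content was 60.3% in the 29 promoters and 52.7% in all windows. By a GC content above 50% and an observed to expected CpG ratio above 0.6, 15 of 29 (51.7%) resembled CpG islands, against 33.3% of all windows. The windows were not limited to genes tested in this muscle, and a comparison with those alone was not made.

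The libraries were first checked as muscle. The summed level of 6 muscle fibre genes was 66545 to 105780.0 TPM in tumour-free and 67338 to 130591 TPM in tumour-bearing libraries. Melanocyte genes summed to at most 0.392 TPM, with Tyr, the tyrosinase of pigment cells, at 0 in every library. Of the red cell genes, control 2 held 23990 TPM against at most 4212 elsewhere, and of 7 slow fibre genes melanoma plus lisinopril 4 held 492.6 TPM against at most 164.6 elsewhere. Genes encoded by mitochondrial DNA took 44.3% ± 5.68 of all TPM in control, 44.9% ± 2.05 with lisinopril, 39.3% ± 5.79 with melanoma and 38.9% ± 7.00 with melanoma plus lisinopril (SD, n = 4, 3, 4 and 4). Since TPM share a fixed sum, this bears on every value here, and the median of all genes lay at 0.17 on the log2 scale in the average tumour effect. That effect is the mean of melanoma minus control and melanoma plus lisinopril minus lisinopril, and log2 fold changes are on the log2(TPM + 1) scale, which understates changes of low genes. In whole muscle, fewer cells of a type and less RNA per cell cannot be told apart.

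In the average tumour effect 10 of the 36 genes were lower and 2 were higher at a limma adjusted p under 0.05. Of all genes tested, 3.45% were lower and 14.5% were higher by the same rule. The 10 lower genes were Slc25a20 and Cpt2 of the carnitine shuttle, Acadvl and Acads of the acyl-CoA dehydrogenases, Hadha, Hadhb, Hadh and Acaa2 of the later steps, Eci1 of the enoyl-CoA isomerases and Etfb of the electron transfer flavoprotein. Acacb and Eci2 were the 2 higher genes. The members' median was -0.18 against 0.17 for all genes, and 28 of 36 lay below the all-gene median. After median-ratio rescaling, which brought the all-gene median to 0.00, 15 members were lower and 1 was higher and the members' median was -0.38. Over all genes this changed the split from 411 lower and 1730 higher to 1261 lower and 1107 higher.

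The number of calls moved with single libraries. Without lisinopril 1 the 10 lower calls fell to 1, without lisinopril 2 to 3, without control 1 or control 4 to 4, without control 3 or lisinopril 3 to 5, and without melanoma plus lisinopril 1 or 4 to 6, while without each of the others they were 7 to 10. Without both control 2, the library rich in red cell genes, and melanoma 2, 11 were lower and 3 higher. These 2 libraries were left out together because they stood apart in these data. In that fit 602 of 11747 genes were lower and 3067 higher. All-gene counts for the fits with a single library left out are not given here. No call changed its direction in any of these fits. Apart from the fits, all 8 tumour-bearing libraries lay below all 7 tumour-free ones for 3 members, Acads, Acaa2 and Eci1, as they did for 0.839% of all genes. For 0 members they all lay above, as they did for 1.49% of all genes.

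**Figure D1:**
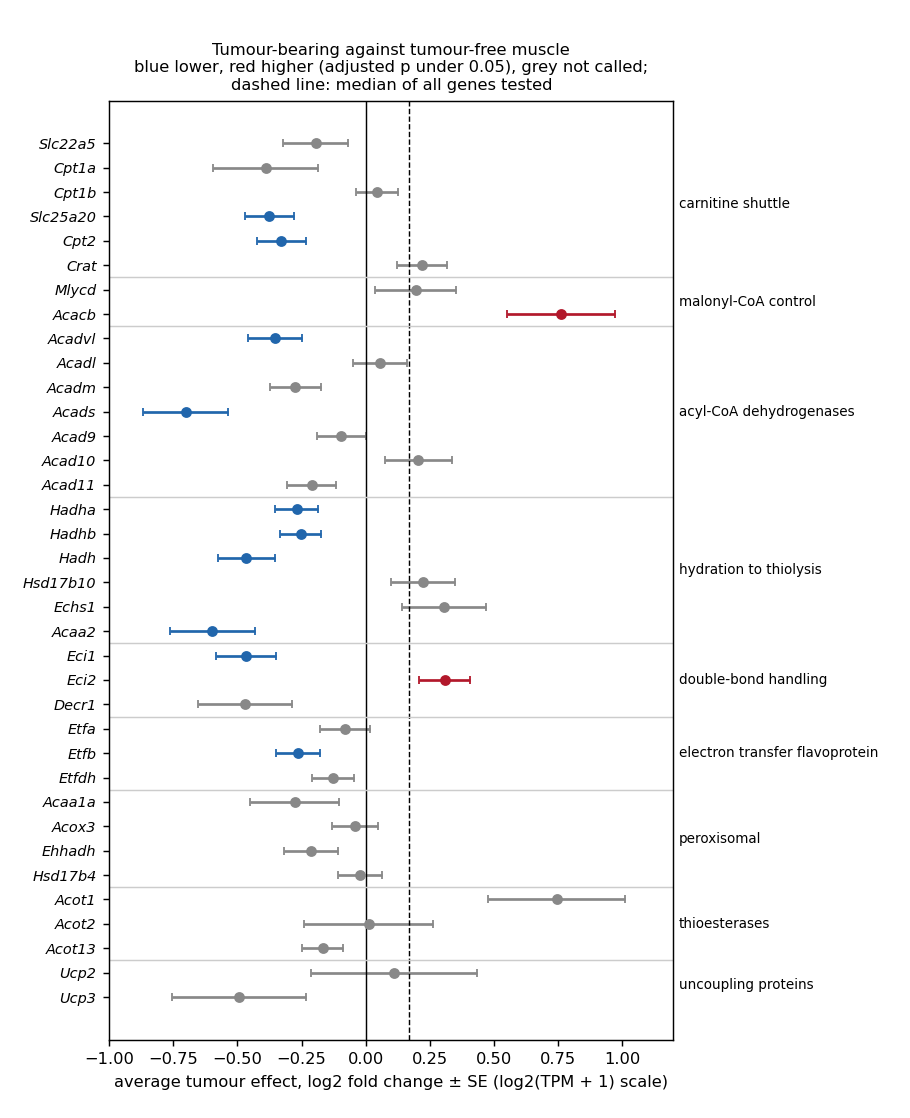
Average tumour effect of the 36 genes by role, as log2 fold change on the horizontal axis with SE, blue for the 10 lower and red for the 2 higher genes at an adjusted p under 0.05 and grey for the rest. The dashed line is the median of all genes tested, 0.17, and 28 of the 36 points lie to its left.

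Without the drug, melanoma minus control gave 1 lower member, Slc25a20, and 0 higher, where 0.185% of all genes were lower and 0.461% higher. At an unadjusted p under 0.05 the count was 16 members and 2209 of all genes. With the drug, melanoma plus lisinopril minus lisinopril gave 0 lower and 0 higher members by limma, where 0.143% of all genes were lower and 1.34% higher, and 4 members and 2781 of all genes had an unadjusted p under 0.05. The medians of the members were -0.27 without and -0.07 with the drug, beside 0.10 and 0.23 for all genes. In both comparisons 28 of the 36 lay below the all-gene median. The lower count without the drug was 6 without control 2 and 3 without melanoma plus lisinopril 4, and 0 without each of 10 other libraries.

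In the carnitine shuttle, 2 of 6 genes were lower and 0 higher in the average tumour effect. Slc25a20 encodes the carnitine-acylcarnitine carrier of the inner membrane and lies at chr9:108662088-108684641 on the plus strand. It read 70.4, 55.8, 61.6 and 65.4 TPM in control, 56.0, 53.6 and 45.0 with lisinopril, 42.1, 37.4, 41.9 and 41.2 with melanoma, and 42.5, 54.3, 51.4 and 40.5 with melanoma plus lisinopril. Each melanoma library was below every control library, and 2 of the 4 melanoma plus lisinopril libraries were below all of the lisinopril libraries. The difference melanoma minus control was -0.62 ± 0.13 (SE), limma adjusted p = 0.0443, so that it fell by 35.1% on the TPM + 1 scale, the single call among the members in that comparison. It was past the threshold in 10 of 26 alternative fits. With the drug the difference was -0.13 ± 0.14 (SE), limma adjusted p = 0.576, and the average was -0.38 ± 0.10 (SE), limma adjusted p = 0.0211, called in 23 of 25 alternatives.

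Cpt2, the carnitine palmitoyltransferase of the inner membrane, was at 58.1 ± 6.16 TPM (SD, n = 7) in tumour-free and 45.7 ± 5.02 TPM (SD, n = 8) in tumour-bearing muscle, a change of -0.33 ± 0.10 (SE), limma adjusted p = 0.0335, with -0.47 without and -0.18 with the drug. It lay below the whole tumour-free range in 7 of the 8 libraries with tumour. Crat, carnitine acetyltransferase, which buffers acetyl-CoA, was the shuttle gene with the highest mean level. It read 205, 191, 201 and 222 TPM in control, 209, 172 and 218 with lisinopril, 243, 292, 211 and 214 with melanoma, and 233, 224, 218 and 255 with melanoma plus lisinopril. The highest value was that of melanoma 2, and 5 of 8 tumour-bearing libraries exceeded all tumour-free ones. The average difference of 0.22 ± 0.10 (SE), limma adjusted p = 0.109 did not pass, and it was 0.01 in the lowest of the alternatives.

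Cpt1b, the muscle form of the outer-membrane acyltransferase that malonyl-CoA inhibits, was at 196 ± 18.2 TPM (SD, n = 7) in tumour-free and 200.4 ± 19.7 TPM (SD, n = 8) in tumour-bearing muscle. The average difference was 0.04 ± 0.08 (SE), limma adjusted p = 0.714, with -0.15 without and 0.24 with the drug, and its sign changed with the scaling. Of its transcript sequence, 80.4% is shared in runs of 50 bases with the read-through gene Gm44502, and how such reads were counted is not stated. Cpt1a, the form best known from liver, had a mean of 4.39 TPM against 199 TPM for Cpt1b. It ranged from 2.96 to 11.0 TPM in tumour-free and 2.03 to 5.76 TPM in tumour-bearing muscle, with -0.39 ± 0.20 (SE), limma adjusted p = 0.174. Slc22a5, the plasma membrane carrier for carnitine, ranged from 8.16 to 11.0 TPM in tumour-free and 5.26 to 9.99 TPM in tumour-bearing muscle, with -0.19 ± 0.13 (SE), limma adjusted p = 0.27.

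Of the pair that sets malonyl-CoA, Acacb was higher and Mlycd did not pass. Acacb encodes acetyl-CoA carboxylase 2 of the outer mitochondrial membrane, which makes the malonyl-CoA that inhibits Cpt1, and lies at chr5:114146535-114250761 on the plus strand. It read 57.3, 67.4, 46.7 and 58.2 TPM in control, 49.3, 48.2 and 59.4 with lisinopril, 89.8, 211, 74.5 and 61.2 with melanoma, and 105, 78.8, 77.3 and 99.9 with melanoma plus lisinopril. All but 1 of the 8 tumour-bearing libraries were above every tumour-free one, and melanoma 2 was the highest. The average difference was 0.76 ± 0.21 (SE), limma adjusted p = 0.0276, a rise of 69.4% on the TPM + 1 scale, with 0.75 without and 0.77 with the drug. It stayed past the threshold in 19 of 25 alternatives. Mlycd, malonyl-CoA decarboxylase, which removes malonyl-CoA, ranged from 43.6 to 58.0 TPM in tumour-free and 35.4 to 83.1 TPM in tumour-bearing muscle, with 0.20 ± 0.16 (SE), limma adjusted p = 0.374, and its difference lay between -0.01 and 0.29 over the alternatives.

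Among the 7 acyl-CoA dehydrogenases 2 were lower and 0 higher. Acads, the short-chain enzyme, is at chr5:115110299-115119346 on the minus strand. It read 88.5, 79.4, 75.1 and 76.5 TPM in control, 71.6, 78.8 and 75.4 with lisinopril, 46.8, 23.0, 60.5 and 45.7 with melanoma, and 55.2, 56.2, 62.8 and 42.0 with melanoma plus lisinopril. Every tumour-bearing library was below every tumour-free library, and melanoma 2 was the lowest. Averaged over both settings the difference was -0.70 ± 0.16 (SE), limma adjusted p = 0.0146, so that it fell by 38.5%, with -0.92 without and -0.48 with the drug. Acads was the one member called in all 25 alternatives of this comparison, with adjusted p from 0.00191 to 0.0397.

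Acadl, the long-chain enzyme, was the dehydrogenase with the highest mean level. It read 364, 404, 367 and 302 TPM in control, 318, 283 and 246 with lisinopril, 306, 380.4, 321 and 260.1 with melanoma, and 391, 346, 335 and 314 with melanoma plus lisinopril. The groups overlapped throughout and the lisinopril group was the lowest. The average difference was 0.06 ± 0.11 (SE), limma adjusted p = 0.723, with -0.19 without and 0.30 with the drug, and its sign changed with the scaling. Acadvl, the very-long-chain enzyme of the inner membrane, was at 313 ± 22.3 TPM (SD, n = 7) in tumour-free and 246 ± 41.6 TPM (SD, n = 8) in tumour-bearing muscle, a change of -0.35 ± 0.10 (SE), limma adjusted p = 0.0337, with -0.55 without and -0.16 with the drug. Of its exonic bases, 42.9% lie opposite exons of Dvl2. The library kit is stranded per the labels, and whether the counting used strand is not given in the sources used here.

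Acadm, the medium-chain enzyme, fell short of the threshold at 157 ± 11.1 TPM (SD, n = 7) in tumour-free and 129.7 ± 19.3 TPM (SD, n = 8) in tumour-bearing muscle, with -0.27 ± 0.10 (SE), limma adjusted p = 0.0636. It was called in 4 of 25 alternatives. Acad11, which takes very long chains, ranged from 36.3 to 43.7 TPM in tumour-free and 29.1 to 42.5 TPM in tumour-bearing muscle, with -0.21 ± 0.10 (SE), limma adjusted p = 0.121. Acad9, better known as an assembly factor of respiratory complex I, differed by -0.10 ± 0.10 (SE), limma adjusted p = 0.48. Acad10, of mean 2.25 TPM, differed by 0.21 ± 0.13 (SE), limma adjusted p = 0.253, and 20.2% of its sequence is shared in runs of 50 bases with Acad12.

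**Figure D2:**
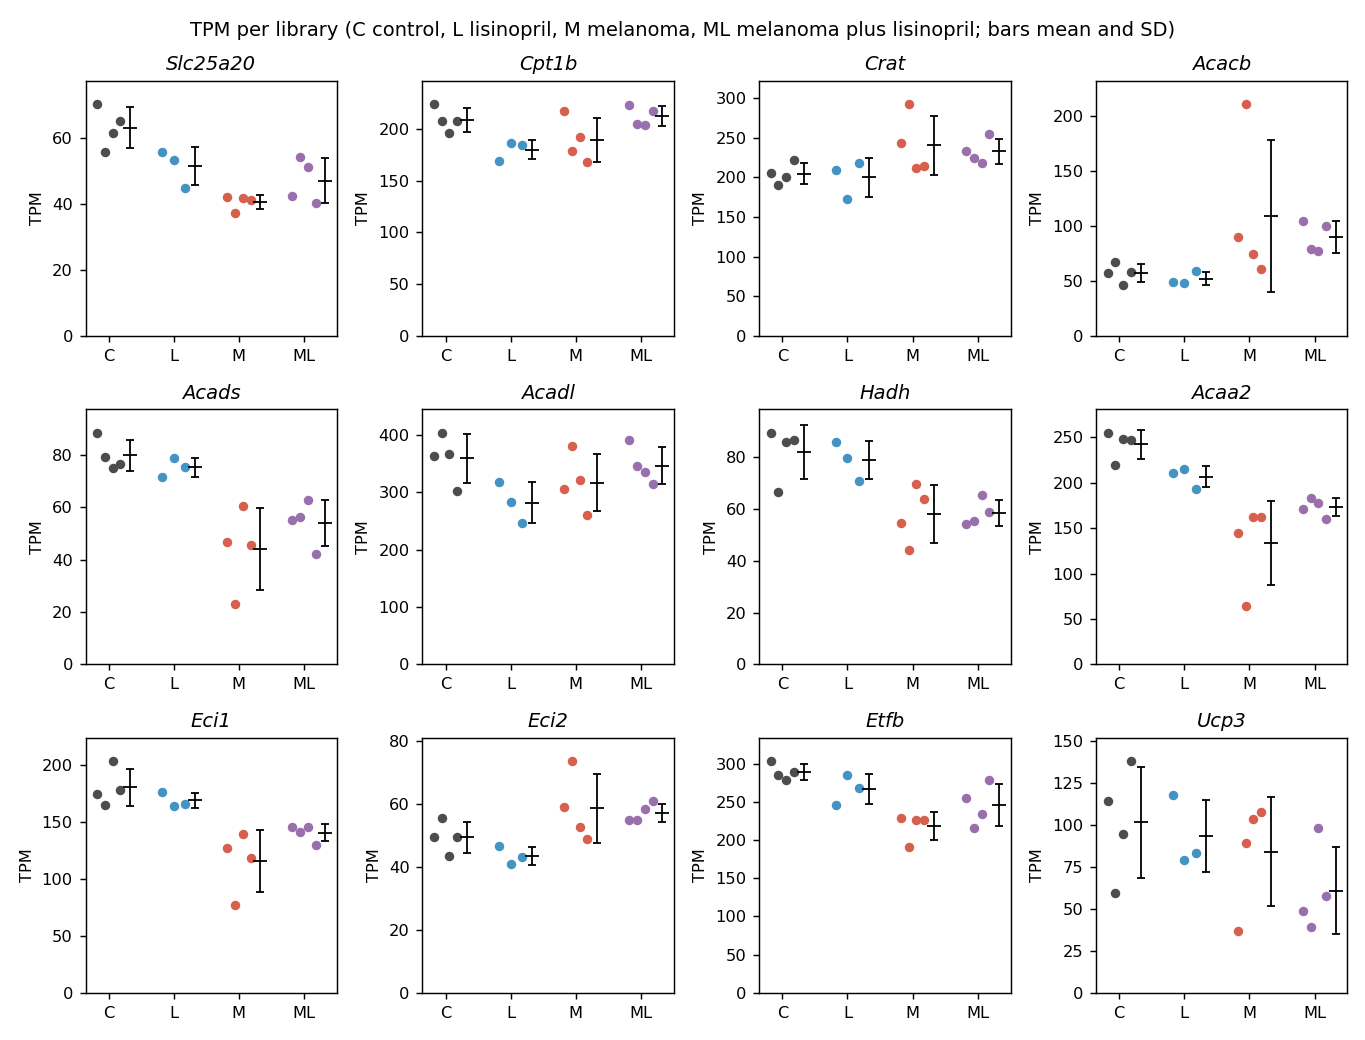
TPM per library (vertical axis, from 0) of 12 genes in control (C), lisinopril (L), melanoma (M) and melanoma plus lisinopril (ML), with mean and SD beside the points. Acads, Acaa2 and Eci1 have all 8 tumour-bearing libraries below all 7 tumour-free ones, while Cpt1b and Acadl overlap between the groups.

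The steps from hydration to thiolysis held the most calls, 4 of 6 lower and 0 higher. Hadh, the hydroxyacyl-CoA dehydrogenase for short and medium chains, lies at chr3:131233419-131272101 on the minus strand. It read 89.6, 66.5, 85.8 and 86.5 TPM in control, 85.9, 79.9 and 71.1 with lisinopril, 54.6, 44.1, 69.6 and 64.1 with melanoma, and 54.2, 55.4, 65.5 and 58.8 with melanoma plus lisinopril. All 4 melanoma plus lisinopril libraries were below the 3 lisinopril libraries, and 3 of 4 melanoma libraries were below every control library, among which control 2 was the lowest. The average difference was -0.47 ± 0.11 (SE), limma adjusted p = 0.0165, with -0.50 without and -0.43 with the drug, and it was called in 24 of 25 alternatives.

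Acaa2, the mitochondrial thiolase that releases acetyl-CoA, read 255, 219, 248 and 247 TPM in control, 211, 215 and 193 with lisinopril, 145, 64.9, 162 and 162 with melanoma, and 171, 183, 178 and 159.7 with melanoma plus lisinopril. Each tumour-bearing library was below each tumour-free one, and melanoma 2 stood far below the other 3 of its group. Its average difference was -0.60 ± 0.17 (SE), limma adjusted p = 0.0279, so that it fell by 33.9%, with -0.94 without and -0.26 with the drug. It was called in 18 of 25 alternatives.

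Hadha and Hadhb, which share the divergent promoter printed above, were both lower in the average tumour effect. Hadha was at 119.9 ± 10.7 TPM (SD, n = 7) in tumour-free and 98.7 ± 12.5 TPM (SD, n = 8) in tumour-bearing muscle, a change of -0.27 ± 0.08 (SE), limma adjusted p = 0.0421, with -0.49 without and -0.05 with the drug. Hadhb was at 123 ± 7.78 TPM (SD, n = 7) in tumour-free and 103 ± 11.5 TPM (SD, n = 8) in tumour-bearing muscle, a change of -0.25 ± 0.08 (SE), limma adjusted p = 0.0431, with -0.42 without and -0.09 with the drug. The ratio of Hadhb to Hadha within a library was 0.917 to 1.16 in tumour-free and 0.991 to 1.11 in tumour-bearing libraries, so its ranges overlapped. Both calls were among the less stable, with Hadha called in 13 and Hadhb in 12 of 25 alternatives. For Hadhb, 57.5% of the sequence is shared in runs of 50 bases with other genes, mostly Gm13910.

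Echs1 and Hsd17b10, the enoyl-CoA hydratase for short chains and a dehydrogenase of branched-chain and steroid substrates, were not called. Echs1 ranged from 46.2 to 68.5 TPM in tumour-free and 48.1 to 101 TPM in tumour-bearing muscle, with 0.31 ± 0.16 (SE), limma adjusted p = 0.182. Hsd17b10 ranged from 68.1 to 87.8 TPM in tumour-free and 70.1 to 130.4 TPM in tumour-bearing muscle, with 0.22 ± 0.13 (SE), limma adjusted p = 0.202. In both, melanoma 2 was the highest of the 15 libraries.

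The 3 genes for double bonds went different ways. Eci1, the mitochondrial enoyl-CoA isomerase at chr17:24426641-24439348 on the plus strand, read 175, 165, 204 and 178 TPM in control, 177, 164 and 166 with lisinopril, 127, 77.4, 139.9 and 118 with melanoma, and 146, 141, 146 and 129.7 with melanoma plus lisinopril. All 8 tumour-bearing libraries were below all 7 tumour-free ones. On average the difference was -0.47 ± 0.12 (SE), limma adjusted p = 0.0188, with -0.67 without and -0.26 with the drug, and it was called in 24 of 25 alternatives. Eci2, an isomerase found in peroxisomes and mitochondria, read 49.7, 55.6, 43.4 and 49.4 TPM in control, 46.6, 41.1 and 43.1 with lisinopril, 59.2, 73.7, 52.7 and 49.1 with melanoma, and 54.9, 55.1, 58.4 and 60.9 with melanoma plus lisinopril; it is given in full because of its opposite direction, a choice made after its values were seen. All 4 melanoma plus lisinopril libraries were above the 3 lisinopril libraries, while 2 of 4 melanoma libraries were above every control. Its average difference of 0.31 ± 0.10 (SE), limma adjusted p = 0.0455 was called in 8 of 25 alternatives and was 0.10 in the lowest of them. Decr1, the mitochondrial dienoyl-CoA reductase, was at 67.6 ± 3.67 TPM (SD, n = 7) in tumour-free and 50.7 ± 14.3 TPM (SD, n = 8) in tumour-bearing muscle, with -0.47 ± 0.18 (SE), limma adjusted p = 0.0768. It lay below all tumour-free libraries in 7 of 8 tumour-bearing ones and reached 20.3 TPM in melanoma 2.

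For the electron transfer flavoprotein, 1 of 3 genes was lower. Etfb, its beta subunit, was the most abundant at a mean of 254 TPM and read 303, 285, 279 and 289.5 TPM in control, 246, 285 and 268 with lisinopril, 228, 191, 227 and 227 with melanoma, and 254, 216, 234 and 279 with melanoma plus lisinopril. The 4 melanoma libraries were below every control library, and 2 of 4 melanoma plus lisinopril libraries were below all of the lisinopril libraries. Over both settings the difference was -0.26 ± 0.09 (SE), limma adjusted p = 0.0464, with -0.41 without and -0.12 with the drug, called in 11 of 25 alternatives. Of its sequence, 57.7% is shared in runs of 50 bases with the overlapping gene Gm45233. Etfa, the alpha subunit, ranged from 203 to 254 TPM in tumour-free and 187 to 268 TPM in tumour-bearing muscle, with -0.08 ± 0.10 (SE), limma adjusted p = 0.566. Etfdh, which passes the electrons on to ubiquinone, ranged from 44.1 to 54.0 TPM in tumour-free and 39.0 to 48.9 TPM in tumour-bearing muscle, with -0.13 ± 0.08 (SE), limma adjusted p = 0.256.

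None of the 4 peroxisomal genes was called by limma in the average tumour effect, and 0 of them had an unadjusted p under 0.05. In that effect 17 of the 36 members and 4526 of the 11923 genes tested had such a p. Ehhadh, the bifunctional enzyme for straight chains, had the smallest p of the 4 and read 5.40, 4.79, 4.75 and 4.65 TPM in control, 4.47, 4.05 and 5.60 with lisinopril, 4.64, 3.49, 4.41 and 4.05 with melanoma, and 3.16, 3.30, 4.30 and 4.80 with melanoma plus lisinopril. The melanoma values were all below the control values, and the drug groups overlapped. Its average difference was -0.21 ± 0.11 (SE), limma adjusted p = 0.157. Hsd17b4, the bifunctional enzyme for branched and very long chains, was the most abundant of them and read 42.1, 36.4, 37.0 and 44.4 TPM in control, 35.9, 35.4 and 32.8 with lisinopril, 32.1, 39.7, 38.0 and 36.9 with melanoma, and 32.7, 37.7, 37.5 and 39.1 with melanoma plus lisinopril. The groups overlapped, with -0.02 ± 0.09 (SE), limma adjusted p = 0.872, and its sign changed without control 4, melanoma 1 or melanoma plus lisinopril 1. Acaa1a, the peroxisomal thiolase, ranged from 12.1 to 19.8 TPM in tumour-free and 6.45 to 21.5 TPM in tumour-bearing muscle, with -0.28 ± 0.17 (SE), limma adjusted p = 0.25, and shares 26.7% of its sequence in runs of 50 bases with Acaa1b. Acox3, an oxidase of branched chains, differed by -0.04 ± 0.09 (SE), limma adjusted p = 0.752.

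The 3 thioesterases, which split acyl-CoA into free fatty acid and coenzyme A, also had 0 calls. Of them 1 had an unadjusted p under 0.05, as had 4526 of the 11923 genes tested. Acot1, the cytosolic enzyme, was low and read 0.656, 2.54, 0.0700 and 0.211 TPM in control, 0.359, 0.195 and 0.309 with lisinopril, 0.887, 2.62, 1.37 and 1.15 with melanoma, and 0.701, 0.744, 1.80 and 3.45 with melanoma plus lisinopril. Each melanoma plus lisinopril library was above each lisinopril library, while control 2 was above 6 of the 8 tumour-bearing libraries. Its average difference was 0.74 ± 0.27 (SE), limma adjusted p = 0.0623, called in 4 of 24 alternatives. Acot2, the mitochondrial enzyme whose gene starts 21629 bases from that of Acot1, ranged from 5.63 to 14.2 TPM in tumour-free and 4.25 to 14.4 TPM in tumour-bearing muscle, with 0.01 ± 0.25 (SE), limma adjusted p = 0.978. Acot1 and Acot2 share 23.5% of the Acot1 sequence in runs of 50 bases, and how such reads were split is not stated. Acot13 was the most abundant thioesterase and read 229, 194, 244 and 222 TPM in control, 219, 229 and 217 with lisinopril, 202, 194, 189 and 186 with melanoma, and 219, 195, 189 and 205 with melanoma plus lisinopril. Of the 4 melanoma libraries 2 were below the control range, of the 4 melanoma plus lisinopril libraries 3 were below the lisinopril range, and the average difference was -0.17 ± 0.08 (SE), limma adjusted p = 0.137.

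Ucp3 and Ucp2, uncoupling proteins of the inner membrane whose genes start 20347 bases apart, were not called. Ucp3, the muscle form, read 114, 59.6, 94.4 and 138 TPM in control, 118, 79.1 and 83.3 with lisinopril, 36.6, 88.9, 103 and 107 with melanoma, and 48.8, 39.1, 97.8 and 57.8 with melanoma plus lisinopril. Its lowest value was that of melanoma 1 and its highest that of control 4, and 4 of 8 tumour-bearing libraries were below all tumour-free ones. Its average difference was -0.49 ± 0.26 (SE), limma adjusted p = 0.175, with -0.32 without and -0.67 with the drug. Ucp2, expressed widely and also in immune cells, ranged from 3.51 to 29.5 TPM in tumour-free and 3.74 to 12.2 TPM in tumour-bearing muscle, with 0.11 ± 0.32 (SE), limma adjusted p = 0.821. Its highest value was in control 2, which also had the highest summed level of the 5 macrophage and leukocyte genes among tumour-free libraries, 48.5 TPM. In melanoma 2 and melanoma 3 that sum was higher, 91.8 and 50.6 TPM, with Ucp2 at 8.81 and 12.2 TPM. A link between that sum and Ucp2 was not tested.

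**Figure D3:**
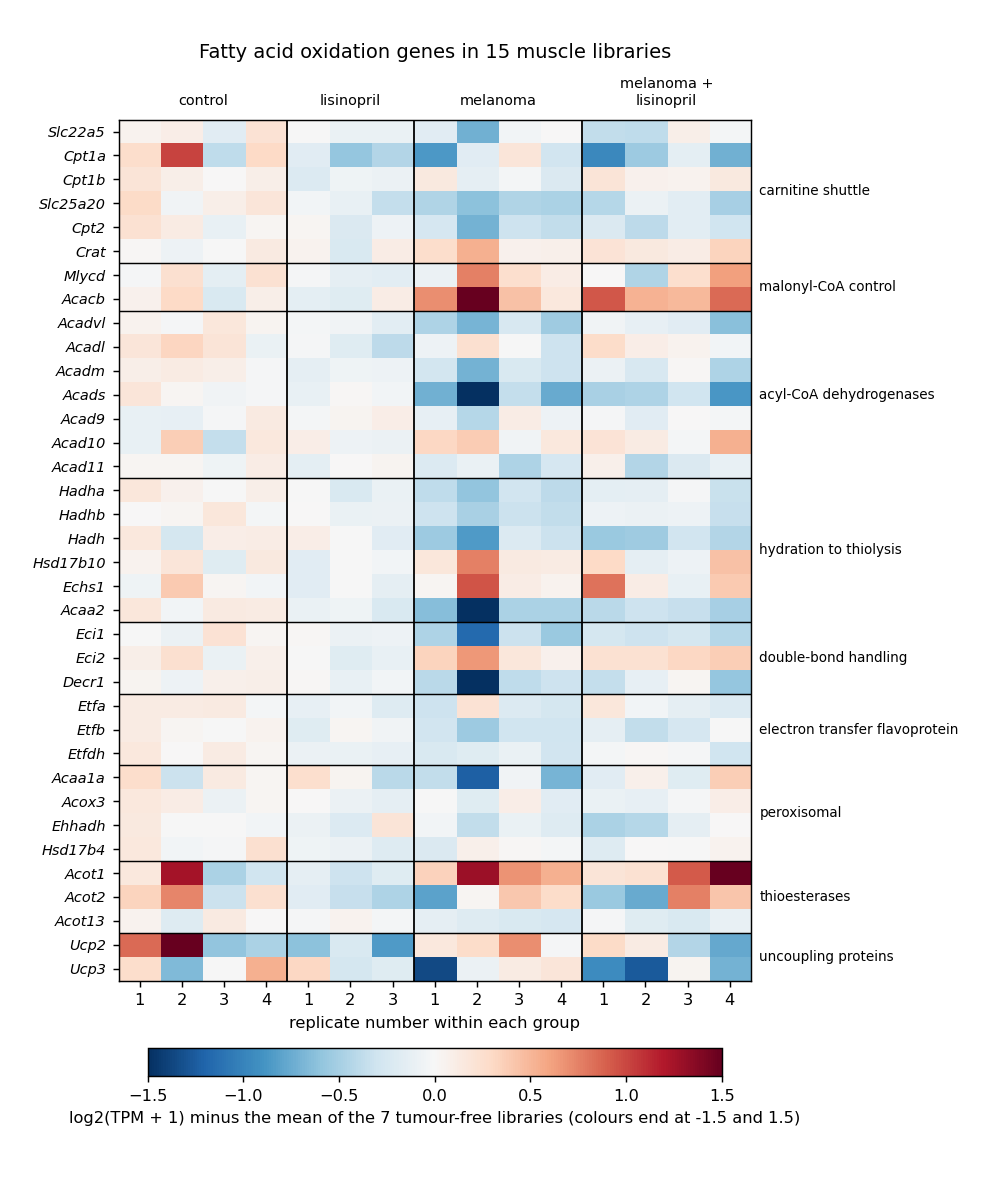
Level of the 36 genes (lines, by role) in the 15 libraries (columns), as log2(TPM + 1) minus the mean of the 7 tumour-free libraries, red above and blue below. Melanoma 2 is the lowest library for 16 genes and the highest for 7.

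Melanoma 2 was the library at the ends of the range for most members. It was the lowest of the 15 for 16 of 36 members (44.4%), where it was the lowest for 12.2% of all genes. It was the highest for 7 members (19.4%), among them Crat, Mlycd, Acacb, Eci2 and Echs1, and for 29.1% of all genes. Its summed neutrophil genes reached 335.7 TPM and its leukocyte genes 91.8 TPM, both the highest of the 15. Of the leukocyte sum 75.9 TPM came from Cd68 alone, which reached at most 18.1 TPM in tumour-free libraries. Ptprc, another of the leukocyte genes, reached at most 2.72 TPM in tumour-bearing and 7.94 TPM in tumour-free libraries. Without melanoma 2 the average tumour effect gave 8 lower members and 1 higher.

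Ratios of 2 members within a library do not depend on how the library was scaled, and 4 more of the 8 computed are described, chosen after the values were seen and without a test. The ratio of Acads to Acadl was 0.196 to 0.307 in tumour-free and 0.0604 to 0.189 in tumour-bearing libraries, with no overlap. That of Eci1 to Eci2 was 2.98 to 4.69 in tumour-free and 1.05 to 2.66 in tumour-bearing libraries, also without overlap. Slc25a20 to Cpt1b gave 0.245 to 0.331 in tumour-free and 0.187 to 0.266 in tumour-bearing libraries, and 5 of 8 libraries with tumour fell short of the range of the others. Acacb to Mlycd gave 1.01 to 1.36 in tumour-free and 1.16 to 2.54 in tumour-bearing libraries, and 4 of 8 exceeded that range. Acads and Eci1 each separated both kinds of libraries before any ratio was taken, while Acadl overlapped and Eci2 was called higher. Their ratios therefore restate these values apart from the scaling and add no separate evidence. The ratios of Acaa2 to Echs1, Acot1 to Acot2 and Etfb to Etfa overlapped between tumour-free and tumour-bearing libraries.

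**Figure D4:**
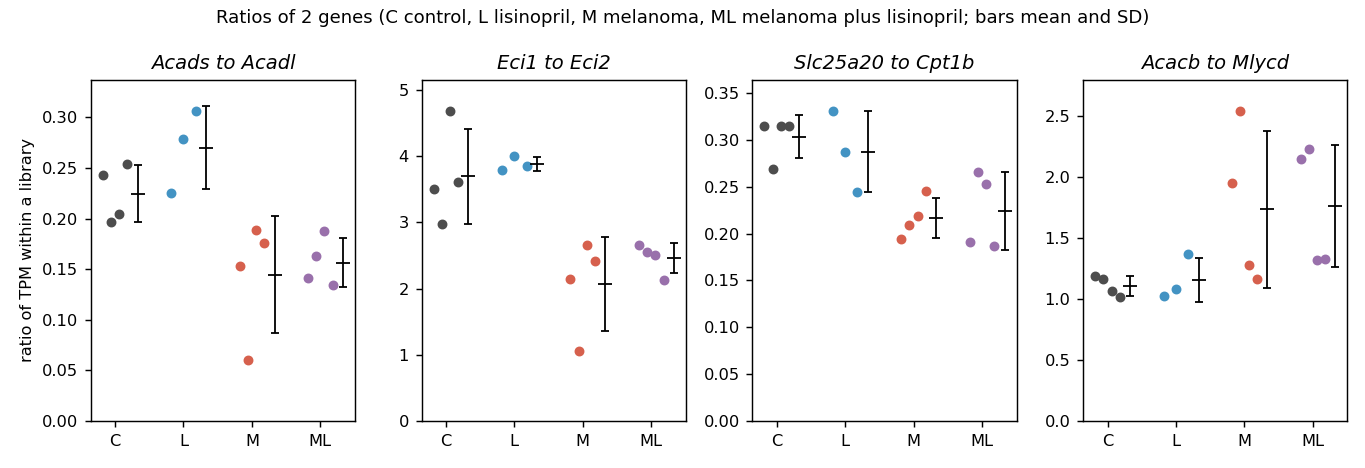
Ratio of the TPM of 2 genes within each library (vertical axes, from 0) in control (C), lisinopril (L), melanoma (M) and melanoma plus lisinopril (ML), with mean and SD. Acads to Acadl and Eci1 to Eci2 separate the 8 tumour-bearing from the 7 tumour-free libraries.

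Whether lisinopril changed the tumour effect was tested by the interaction, the tumour effect with the drug minus that without. It gave 0 calls among the members and over all genes (0.0%) by limma, with 4 members and 151 of all genes at an unadjusted p under 0.05. The lowest adjusted p of a member was 0.9997. The 4 members were Hadha (0.45), Slc25a20 (0.50), Cpt1b (0.38) and Acadl (0.48), each less negative or more positive with the drug. Of all members, 19 had a tumour effect below 0 in both settings, 8 above 0 in both and 9 below 0 without and above 0 with the drug. The reverse was seen for 0 members. In 33 of 36 members (91.7%) the effect was higher with the drug, as it was in 73.0% of all genes, and 26 of 36 lay above the all-gene median of the interaction, 0.13. With median-ratio rescaling 26 of 36 interaction values were above 0. Across the 36 genes the correlation of both effects was 0.81 (Pearson), and 0.76 across all genes, which are not independent replicates.

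**Figure D5:**
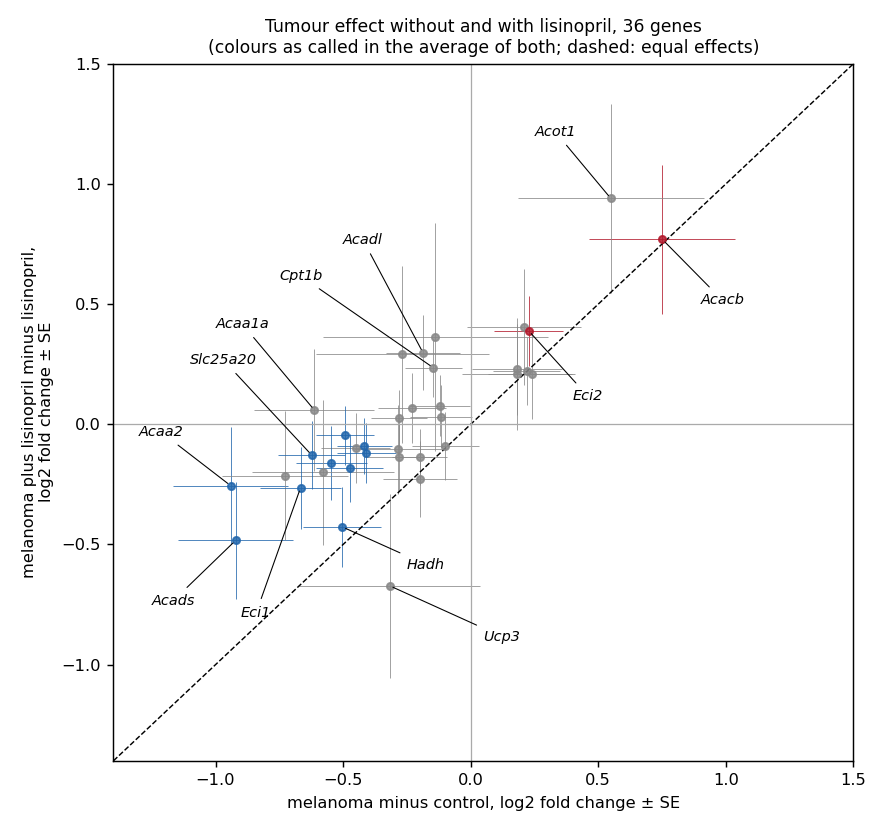
Tumour effect of each of the 36 genes without lisinopril (horizontal axis) and with it (vertical axis), as log2 fold change with SE, coloured as in the plot of the average effect. Most points lie above the dashed line of equal effects, 33 of 36, and no single difference between the effects passed the test.

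The drug alone and the drug in tumour-bearing mice gave no member past the threshold. Lisinopril minus control had 0 calls (0.0% of all genes), with 2 members and 461 of all genes at an unadjusted p under 0.05, Cpt1a at -0.69 ± 0.30 (SE), limma adjusted p = 0.714 and Acadl at -0.35 ± 0.16 (SE), limma adjusted p = 0.714. On the deposited scale 35 of 36 members were below 0, but 8 after median-ratio rescaling, so the sign of most of these small differences depended on the scaling. Melanoma plus lisinopril minus melanoma also had 0 calls (0.0%), with 2 members and 189 of all genes at an unadjusted p under 0.05. These were Acaa1a at 0.61 ± 0.24 (SE), limma adjusted p = 0.9999 and Hadha at 0.26 ± 0.12 (SE), limma adjusted p = 0.9999. The summed TPM of the 36 genes were 3663 ± 70.6 in control, 3274 ± 83.0 with lisinopril, 3030 ± 117 with melanoma and 3266 ± 139 with melanoma plus lisinopril (SD, n = 4, 3, 4 and 4). The ranges of control and melanoma did not overlap in this sum and those of both drug groups did, given here without a test. Control, at 3604 to 3764 TPM, also lay wholly above lisinopril (3190 to 3355.5) and melanoma plus lisinopril (3160 to 3452). The overlap of the drug groups thus came with a lisinopril group already below control.

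All 4 neutrophil genes, S100a8, S100a9, Retnlg and Cxcr2, were higher in the average tumour effect, with limma adjusted p from 0.00529 to 0.0182. They summed to 9.62 to 88.3 TPM in tumour-free and 29.8 to 336 TPM in tumour-bearing libraries, and the leukocyte genes to 6.88 to 48.5 TPM in tumour-free and 14.7 to 91.8 TPM in tumour-bearing libraries. Adipocyte genes summed to 1.12 to 54.4 TPM in tumour-free and 5.76 to 45.0 TPM in tumour-bearing libraries. Of 7 slow fibre genes, which mark fibres rich in mitochondria, the sum was 12.3 to 165 TPM in tumour-free and 30.0 to 493 TPM in tumour-bearing libraries. None of these slow fibre genes was called. The 3 fast fibre myosin genes summed to 9954 to 17751 TPM in tumour-free and 14386 to 23849.8 TPM in tumour-bearing libraries. All 4 melanoma plus lisinopril libraries were above the 3 lisinopril libraries in this sum. It was made up mostly of Myh4 and Myh1, with means of 10607 and 5644 TPM, and hides Myh2 (337 TPM). In the average tumour effect Myh4 was at 0.62 and Myh1 at 0.38, while Myh2 was at -0.51, with 0 of 3 called by limma. Fibroblast genes summed to 114 to 479 TPM in tumour-free and 298 to 499 TPM in tumour-bearing libraries. Of these 3 genes Dcn (limma adjusted p = 0.0087) and Pdgfra (0.0486) were higher, and Col1a1 at -0.96 was not called. Endothelial genes summed to 68.2 to 153 TPM in tumour-free and 88.1 to 138 TPM in tumour-bearing libraries. Of these 4 genes Kdr was lower at -0.85 (limma adjusted p = 0.00674). Pecam1 at 0.64, Tie1 at 0.39 and Cdh5 at 0.11 went the other way without a call. Of the 5 leukocyte genes Mrc1 was higher at 1.02 (limma adjusted p = 0.0171). Cd68 at 0.61, Csf1r at 0.58, Ptprc at 0.09 and Adgre1 at -0.09 were not called. The part of any of these in the results on the members was not tested.

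Related genes were read from 5 further lists in the average tumour effect, in which 3.45% of all genes were lower and 14.5% higher. Of 21 tested genes of other peroxisomal steps (25 listed), 1 was lower and 0 were higher. The lower one was Nudt7, a peroxisomal hydrolase of coenzyme A, at -0.54 ± 0.16, adjusted p = 0.0346 (limma). Of 26 tested genes of other mitochondrial entry and oxidation (30 listed), 1 was lower and 2 were higher. Acot7, a thioesterase, was at -0.42 ± 0.10, adjusted p = 0.0168, Acot9, a mitochondrial thioesterase, at 0.70 ± 0.20, adjusted p = 0.0316 and Acss1, which activates acetate in mitochondria, at 1.19 ± 0.38, adjusted p = 0.043 (limma). With median-ratio rescaling the counts became 4 lower and 0 higher in the first list and 12 lower and 0 higher in the other. By that scaling 1261 of 11923 genes were lower and 1107 higher.

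Of 29 transcriptional and signalling regulators of the route, 9 were higher and 2 lower, beside 14.5% higher and 3.45% lower of all genes. The median of the list was 0.31, against 0.17 for all genes. Foxo1, a transcription factor of fasting and atrophy, was at 1.85 ± 0.35, adjusted p = 0.00538, and Lpin1, a phosphatidate phosphatase and coactivator, at 1.21 ± 0.16, adjusted p = 9.75e-04 (limma). Nrip1, a corepressor of oxidative genes, was at 0.68 ± 0.20, adjusted p = 0.0336, while Sirt3, the mitochondrial deacetylase that acts on Acadl among others, was lower at -0.73 ± 0.15, adjusted p = 0.00836 (limma). Ppara did not pass at 0.25 ± 0.19, adjusted p = 0.359, nor did Ppargc1a at 0.70 ± 0.29, adjusted p = 0.0879 (limma), both named for their known role after their values were seen. Without control 2 and melanoma 2 the counts were 12 higher and 4 lower, where 3067 of 11747 genes were higher and 602 lower. With median-ratio rescaling 6 were higher and 4 lower, where 1107 of 11923 genes were higher and 1261 lower. Nrip1 was then no longer called, with a limma adjusted p of 0.0601.

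Of 13 tested targets of PPAR outside the set (16 listed), 4 were higher and 1 lower, beside 14.5% and 3.45% of all genes. The lower one was Fabp3, a carrier of fatty acids in the cytosol of heart and skeletal muscle, at -1.08 ± 0.15, adjusted p = 0.00111 (limma). It fell from 1028 ± 242 TPM in control and 803 ± 90.8 with lisinopril to 399 ± 28.8 with melanoma and 468.5 ± 149 with melanoma plus lisinopril (SD, n = 4, 3, 4 and 4). Cyp4b1, a fatty acid hydroxylase, was higher at 1.27 ± 0.32, adjusted p = 0.0189, Pnpla2, the lipase that opens triglyceride breakdown, at 1.04 ± 0.28, adjusted p = 0.024, and Vldlr, a lipoprotein receptor, at 0.83 ± 0.13, adjusted p = 0.00229 (limma). The direction of these 4 held under each of the 3 other scalings.

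The tricarboxylic acid cycle, which takes up the acetyl-CoA, had 3 lower and 0 higher genes of 18, beside 3.45% and 14.5% of all genes, with a median of -0.21. Sdhb and Sdhd, subunits of succinate dehydrogenase, were at -0.41 ± 0.11, adjusted p = 0.0224 and -0.37 ± 0.12, adjusted p = 0.0447, and Mdh2, the mitochondrial malate dehydrogenase, at -0.32 ± 0.09, adjusted p = 0.024 (limma). With median-ratio rescaling 10 were lower, where 1261 of 11923 genes were lower. Without control 2 and melanoma 2, 9 were lower and 1 higher, where 602 of 11747 genes were lower and 3067 higher.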

How the data were processed

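Stranded mRNA libraries (TruSeq, NovaSeq) of 15 tibialis anterior samples were made by the authors, per the labels' protocols. The deposited table holds TPM, in which each column sums to 1000000, computed by the authors against mm10, per the submitters' processing notes. Aligner, counting program, annotation and filters were not given in the sources used here, and depth is unknown, so no counting interval can be given. Groups came from the treatment label.

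Symbols with at least 1 TPM in at least 3 libraries (11923) were fitted as log2(TPM + 1) by limma (version 3.58.1, under R 4.3.3). The model had a mean for each of 4 groups, 11 residual and 3.80 prior degrees of freedom, and a trended eBayes step. All 6 contrasts were tested two-sided with Benjamini-Hochberg adjustment over all 11923 genes and a threshold of 0.05. The fit was checked on simulated data. P-values set each difference against the spread between these libraries, estimated over all 4 groups together. Any pooling of mice behind a library is not given. The fits were repeated with no filter, with a stricter filter (a mean of 5 TPM or more), a pseudocount of 0.1, quantile normalization, median-ratio rescaling, rescaling without mitochondrial genes, eBayes without trend, sample quality weights, a replicate block, only the 2 groups compared, each library left out, and control 2 and melanoma 2 left out together. That last choice was made from these data.

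The members and lists were chosen with earlier results of these data known. Every member is named. Values per library are given for members called in melanoma minus control, in melanoma plus lisinopril minus lisinopril or in the interaction, and in each role for the smallest adjusted p in the average tumour effect and the highest mean TPM. Up to 4 called genes per other list, with a mean of at least 5 TPM, are named by size of change. Positions are from GENCODE (GRCm38) and promoters from RefSeq. Other software was matplotlib 3.10.9, numpy 2.4.6, pandas 2.3.3 and Python 3.11.15.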

Additional observations from a re-analysis of the deposited data

Results flagged for a closer look

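Within the groups of 4 libraries, 108 combinations of a member and a group were checked for a library far from its 3 companions on the log2 scale, and 11 had one; chance gives this in about 5% of groups. In 6 of them it was melanoma 2. There Acadm was 95.3 TPM against 126 to 134 in the other 3, Acaa2 64.9 against 145 to 162, Decr1 20.3 against 50.6 to 54.5 and Etfb 191 against 227 to 228. In the other direction Hsd17b10 was 130.4 TPM against 84.1 to 86.9 and Echs1 101 against 53.2 to 56.5.

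In control, Hadh in control 2 was 66.5 TPM against 85.8 to 89.6 in the other 3, and Etfa in control 4 was 227 TPM against 252 to 254. In melanoma plus lisinopril, Hadhb in replicate 4 was 96.3 TPM against 116 to 117, Etfdh in replicate 4 was 39.0 TPM against 47.4 to 48.9, and Acad9 in replicate 2 was 9.08 TPM against 10.1 to 10.3.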

How the results depend on the processing

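In the average tumour effect, 10 members were lower and 2 higher. The lower count was 8 to 15 under the other settings that kept all libraries, apart from 7 with the replicate block. Over all genes the lower calls were 411 of 11923 in the main fit and 1261 with median-ratio rescaling. They were 1174 with quantile normalization and 868 of 12865 without mitochondrial genes. The higher count of members was 0 with no filter and 1 with median-ratio rescaling, quantile normalization, rescaling without mitochondrial genes or the replicate block. It was 3 with a pseudocount of 0.1 or sample quality weights. Leaving out each library in turn gave 1 to 10 lower and 0 to 3 higher members. In melanoma minus control, the 1 lower call became 0 with a pseudocount of 0.1, the stricter filter, median-ratio rescaling, the replicate block or only the 2 groups compared, 2 without mitochondrial genes, 3 with quantile normalization or without control 2 and melanoma 2 together, and 13 with sample quality weights. Leaving out single libraries gave 0 to 6. Over all genes the lower calls in this comparison were 22 of 11923 in the main fit and 64 with median-ratio rescaling. They were 129 with quantile normalization and 65 of 12865 without mitochondrial genes. The all-gene count with sample quality weights is not given here. Without control 2 and melanoma 2 together, 60 of 11747 genes were lower and 196 higher in this comparison. The 0 higher calls became 1 with sample quality weights.

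In melanoma plus lisinopril minus lisinopril, the 0 lower calls became 2 without control 2 and melanoma 2 together and 1 with sample quality weights. The 0 higher calls became 3 under both of these settings and 1 with only the 2 groups compared, and single libraries left out gave 0 to 1. All-gene counts with sample quality weights and with only the 2 groups compared are not given here. Without control 2 and melanoma 2 together, 229 of 11747 genes were lower and 1689 higher. The main fit had 17 lower and 160 higher of 11923 genes in this comparison. The interaction and both drug comparisons gave 0 members under every setting run. The cause of these shifts was not tested. No call reversed its direction. Members without a call changed sign between settings in 25 cases over 6 members in the average tumour effect, 7 cases over 4 members in melanoma minus control and 33 cases over 11 members in melanoma plus lisinopril minus lisinopril.

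Over 21 pairs of the same number in different groups, the correlation of deviations from group means ran from -0.15 to 0.36. Its median was 0.08, with 9 above 0.1. Between different numbers it reached -0.42 (melanoma 2 with melanoma plus lisinopril 3) and 0.36 (control 1 with lisinopril 2). Whether same-numbered libraries form pairs was not tested, and the replicate block served only as an alternative fit. Depth is unknown, 3 to 4 libraries a group limit the precision, and changes near the shift of the all-gene median (0.17) depend on the scaling.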

Other observations

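The members covered a wide range of levels. Acadl, with a mean of 329 TPM over the 15 libraries, Acadvl (277), Etfb (254), Etfa (225) and Crat (221) were the most abundant. Acot1 (1.14), Acad10 (2.25), Cpt1a (4.39), Ehhadh (4.39) and Acox3 (5.55) were the least. Genes of the lower calls in the average tumour effect ranged from 50.6 TPM (Slc25a20) to 277 TPM (Acadvl).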
